A study of Homo sapiens with 2 samples.

Results

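The FGF receptors and the PEA3 group of ETS transcription factors were followed through 9 genes: the 4 receptor tyrosine kinases FGFR1, FGFR2, FGFR3 and FGFR4, the related receptor FGFRL1, the adaptor FRS2, and the transcription factors ETV1, ETV4 and ETV5. The genes were listed by name for their place in one pathway, and every probe set annotated to exactly 1 of them was taken. This gave 38 probe sets for 8 of the 9 genes, out of 19775 genes that have a probe set of their own in the annotation used. FRS2 is not named there, so it has no value. The cells were PC-3, an androgen-independent human prostate cancer line derived from a metastasis to bone. RNA of cells that received an shRNA vector against SHISA2 (siSHISA2_PC-3) was set beside RNA of cells with a control shRNA vector (siCONTROL_PC-3), with 1 array each. How many cultures each RNA came from is not stated in the labels, so no value below has a replicate and no difference was tested. The sample names carry the prefix si, while the design names shRNA vectors.

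FGF ligands bind their receptors together with heparan sulfate, the receptors phosphorylate FRS2, and FRS2 passes the signal to RAS and the kinase ERK. ETV1, ETV4 and ETV5 are well-known transcriptional outputs of this route, and ETV1 and ETV4 are among the ETS genes that are rearranged in some prostate cancers. FGFRL1 lacks the tyrosine kinase domain of the other receptors. Shisa was first described in frog embryos, where it keeps immature FGF and Frizzled receptors inside the endoplasmic reticulum, an effect on the proteins that an RNA array does not read.

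The knockdown was visible in the targeted transcript. SHISA2 had a signal of 1506 in the siSHISA2 array and 3536 in the siCONTROL array, which is 42.6% of the control (log2 ratio -1.23). Signals are MAS5 intensities on a linear scale, and all log2 ratios are siSHISA2 over siCONTROL. A floor of 47.9, the median signal over both arrays, replaced every signal below it, and probe sets with at least 1 signal over the floor count as measured. Where the other signal was below it, only a smallest possible fold is given ("at least"), called a bound. A technical yardstick came from genes with several probe sets: the SD of the difference between the 2 brightest probe sets of a gene, scaled to a single probe set, was 0.286 on the log2 scale. With the floor at the 75th percentile, 387.3, this technical SD was 0.155. Both values come from the same 2 arrays, so variation between cultures that the probe sets of a gene share does not enter them. Brightness also depends on the probes, so signals of different probe sets were not ranked as levels.

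Keratins KRT8 and KRT18, which mark luminal epithelial cells, were above the floor in both arrays, as was the epithelial adhesion molecule EPCAM. KRT19 and E-cadherin, CDH1, were not measured. The androgen target KLK3 was measured on 1 of its 3 probe sets, at 251.0 in the siSHISA2 array and 242.3 in the siCONTROL array, and KLK2 was at least 1.49-fold higher (71.3 in siSHISA2 and 20.6 in siCONTROL cells). Of the markers of other cells, 2 of 5 leukocyte genes, 2 of 4 endothelial, 2 of 5 fibroblast and 2 of 5 neuroendocrine genes were measured, while PTPRC, VWF, KDR, LUM and CHGA were not. The endothelial cadherin CDH5 read 261.5 in siSHISA2 and 155.9 in siCONTROL cells (1.68-fold higher), and PECAM1 read 121.7 in siSHISA2 and 104.6 in siCONTROL cells (0.22, and -0.56 on its other probe set). The B cell receptor component CD79A read 164.6 in siSHISA2 and 109.1 in siCONTROL cells (1.51-fold higher), and CD3E was at least 1.20-fold higher. The collagen gene COL1A1 read 577.0 in siSHISA2 and 787.2 in siCONTROL cells on its brightest probe set, with ratios from -0.45 to 0.92 over 3 probe sets, and DCN was at least 1.11-fold higher. The neuroendocrine marker ENO2 read 287.1 in siSHISA2 and 410.1 in siCONTROL cells (-0.51), and SCG2 was at least 2.26-fold lower in the siSHISA2 array (45.0) than in the siCONTROL array (108.2). The summed signals in the siSHISA2 and siCONTROL arrays were 350.7 and 220.3 for the leukocyte genes, 480.8 and 413.9 for the endothelial, 1084 and 1305 for the fibroblast, and 384.9 and 552.8 for the neuroendocrine genes. Their part in the results was not tested. Fewer cells of one kind and less RNA per cell cannot be told apart in such arrays.

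Of the 38 probe sets, 24 were measured, 22 of them with both signals above the floor and 2 as bounds. None of the 24 reached a 2-fold difference, a size that 1.83% of all 29305 measured probe sets reached. At 1.5-fold the count was 6 of 24 (25%), against 11.0% of all measured probe sets, with 2 higher and 4 lower. With each gene read on its brightest measured probe set, 0 of 8 genes reached 2-fold (1.48% of all 12931 measured genes) and 4 of 8 reached 1.5-fold (50%, against 8.79% of all genes). These 4 were FGFR2, higher, and FGFR4, ETV1 and ETV4, lower. The count depends on the brightest probe set: with the measured probe sets of a gene averaged it was 1 of 8 (ETV4), against 7.61% of all genes. After median centring it was 3 of 8, without FGFR2, against 9.75% of all genes. The median over the 8 genes was -0.10, beside 0.01 over all measured genes. With 8 genes, chosen with earlier results known, these shares describe the list and are no test of it.

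**Figure D1:**
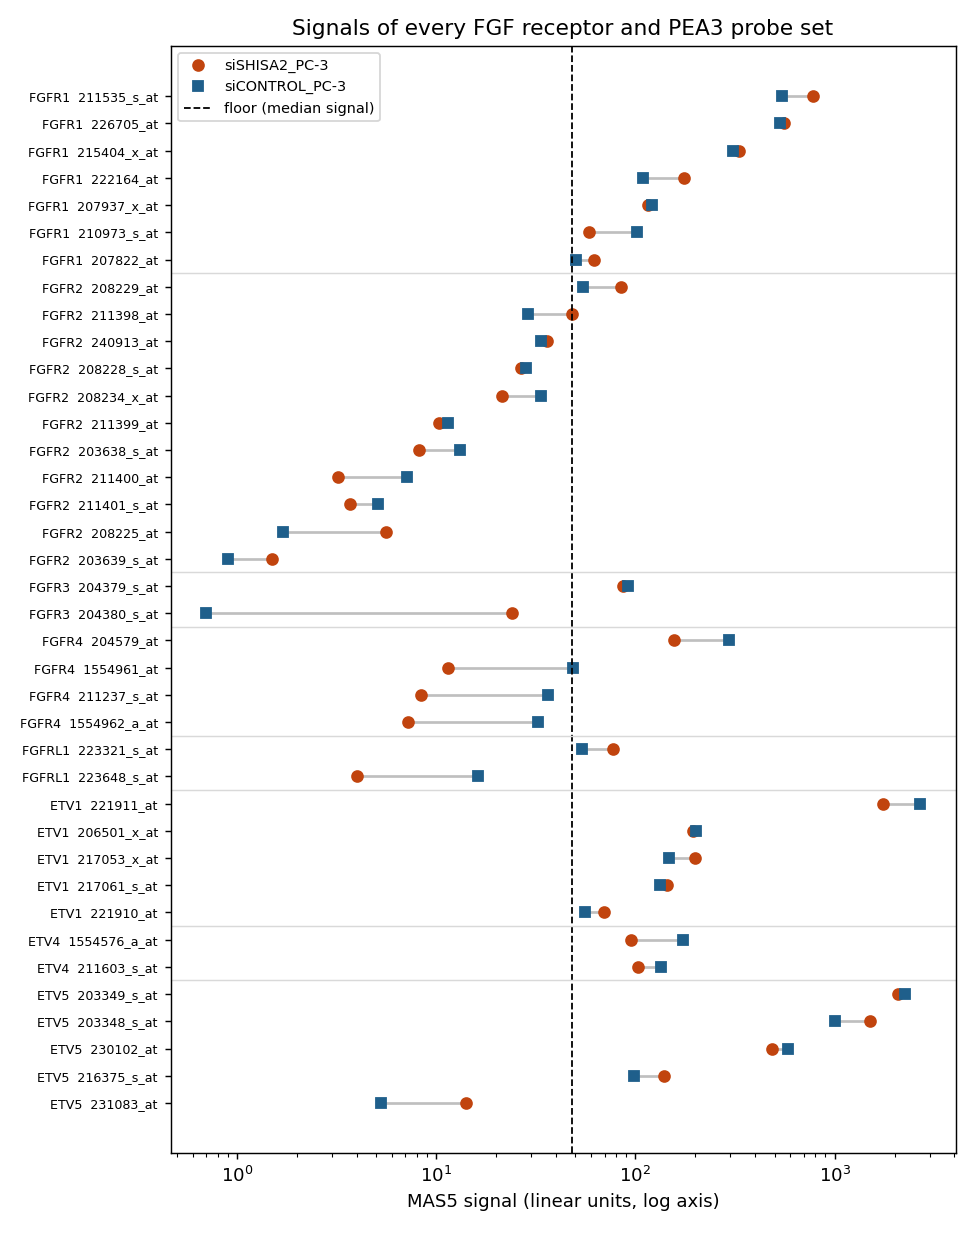
Signals of all 38 probe sets of the 8 genes on a log axis (MAS5 units), with a circle for the siSHISA2 array, a square for the siCONTROL array and the floor of 47.9 as a dashed line. The 204579_at pair of FGFR4 and both ETV4 pairs have the circle left of the square, and 9 of the 11 FGFR2 pairs lie wholly under the floor.

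The promoters of FGFR4 and ETV1 are shown because FGFR4 had the ratio farthest from 0 among the genes and ETV1 the lowest among bright probe sets, as the values that follow give. RefSeq start sites of GRCh38.p14 gave 16 windows of 300 bases (250 before to 50 after the start) for 6 of the 9 genes. Capitals mark GGGCGG, the GC box read by SP1-type factors, and GGAA, the core of ETS sites, on either strand, with overlapping copies counted. The windows are chr5:177086665-177086964 on the plus strand for the upstream start of FGFR4, and chr7:13991376-13991675 on the minus strand for the outermost start of ETV1.
FGFR4: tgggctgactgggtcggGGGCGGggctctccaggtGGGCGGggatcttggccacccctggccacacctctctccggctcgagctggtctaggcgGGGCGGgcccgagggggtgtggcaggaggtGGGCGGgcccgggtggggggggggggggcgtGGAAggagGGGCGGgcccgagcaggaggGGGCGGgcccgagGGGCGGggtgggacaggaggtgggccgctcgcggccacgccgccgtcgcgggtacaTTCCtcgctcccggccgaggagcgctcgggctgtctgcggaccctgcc
ETV1: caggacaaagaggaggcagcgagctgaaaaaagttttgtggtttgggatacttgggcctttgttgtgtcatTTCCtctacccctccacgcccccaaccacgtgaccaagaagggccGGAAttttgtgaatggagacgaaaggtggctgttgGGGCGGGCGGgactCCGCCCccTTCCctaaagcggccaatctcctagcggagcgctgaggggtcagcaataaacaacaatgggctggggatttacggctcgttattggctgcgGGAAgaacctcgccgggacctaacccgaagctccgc
The FGFR4 window had 7 GC boxes and 2 GGAA cores at 78.7% G and C. Over all 35116 promoter windows 45.0% held a GC box and 1.5% held 7 or more, and the median content of G and C was 58.7%. The ETV1 window had 3 GC boxes and 4 GGAA cores, 1 of them within CCGGAA, a letter run found in 17.2% of windows, while GGAA itself was in 95.5%. The downstream start of FGFR4 (chr5:177089300-177089599, not printed) had 8 GGAA cores and no GC box, and 3.78% of windows had 8 or more such cores. A match is a run of letters and was not tested as a binding site.

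FGFR4, a receptor that can work with beta-Klotho for endocrine FGFs, had the ratio farthest from 0 among the 8 genes. Its brightest probe set, 204579_at, read 155.4 in the siSHISA2 array and 296.2 in the siCONTROL array (log2 ratio -0.93, 1.91-fold lower, 3.26 times the technical SD). Of the 2031 measured probe sets within 0.25 of its mean log2 signal, 2.17% were at least as far from 0 in either direction. The ratios of these 2031 had an SD of 0.391, wider than the technical SD. The other 3 probe sets of FGFR4 were dim. Probe set 1554961_at read 11.5 in the siSHISA2 array and 48.8 in the siCONTROL array, a bound of at least 1.02-fold lower. The pairs of 211237_s_at (8.4 in siSHISA2 and 36.3 in siCONTROL cells) and 1554962_a_at (7.2 in siSHISA2 and 32.4 in siCONTROL cells) lay under the floor, where no fold is given. The size of the FGFR4 difference therefore rests on 204579_at alone, and the bound adds only a direction, from a siCONTROL signal just above the floor. Without a floor all 4 pairs were lower in the siSHISA2 array, as in 9.48% of the 1393 genes with 4 probe sets. Signals in the range of the dim ones scatter widely: among the 6788 probe sets whose higher signal was between 30 and 50, 11.2% were at least 4-fold lower without a floor and 14.6% at least 4-fold higher.

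FGFR1, a receptor for many paracrine FGFs, was the only receptor with probe sets above 387.3 in both arrays, and its probe sets disagreed. All 7 were measured, 5 with ratios above 0 and 2 below. Probe set 211535_s_at read 778.4 in the siSHISA2 array and 545.4 in the siCONTROL array (0.51, or 3.32 times 0.155). Beside it, 226705_at read 556.8 in siSHISA2 and 531.9 in siCONTROL cells (0.07). The third in brightness, 215404_x_at, read 329.9 in siSHISA2 and 309.6 in siCONTROL cells (0.09). The difference of 0.447 between the ratios of the 2 bright probe sets was reached or passed by 4.74% of the 2827 genes with at least 2 probe sets above 387.3 in both arrays, where the median was 0.123.

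The dim FGFR1 probe sets spread farther, and after median centring 226705_at (-0.08) and 215404_x_at (-0.05) were also below 0. Probe set 222164_at was at 176.3 in the siSHISA2 array and 109.3 in the siCONTROL array (0.69), while 210973_s_at was at 58.5 in siSHISA2 and 102.2 in siCONTROL cells (-0.80). Probe set 207937_x_at differed little (115.2 in siSHISA2 and 121.6 in siCONTROL cells, -0.08), and 207822_at read 61.9 in siSHISA2 and 50.1 in siCONTROL cells, just above the floor (0.31). The span of 1.49 between the lowest and the highest FGFR1 ratio was matched or passed by 6.98% of the 43 genes with 7 measured probe sets, whose median span was 0.81. Which transcripts each probe set reads was not analysed here. The FGFR1 value therefore depended on the choice: it was 0.51 on the brightest probe set, 0.11 as the mean of all 7 and 0.07 without probe sets of the kinds _x_at and _s_at, which can read several transcripts.

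FGFR2, whose splice forms separate epithelial from mesenchymal ligand binding, was close to background. Of its 11 probe sets 2 were measured. Probe set 208229_at read 84.4 in the siSHISA2 array and 54.3 in the siCONTROL array (0.64), but 34.5% of the 3210 probe sets of similar signal were at least as far from 0. The other, 211398_at, read 48.2 in siSHISA2 and 28.9 in siCONTROL cells, a bound of at least 1.01-fold higher. The remaining 9 ranged from 0.9 to 35.9 over both arrays.

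FGFR3 had 1 measured probe set, 204379_s_at, with 87.0 in the siSHISA2 array and 92.0 in the siCONTROL array (-0.08). Its second, 204380_s_at, read 24.1 in siSHISA2 and 0.7 in siCONTROL cells, both under the floor. FGFRL1, the receptor without a kinase domain, read 76.8 in the siSHISA2 array and 53.9 in the siCONTROL array on 223321_s_at (0.51, with 42.9% of similar probe sets at least as far). Its second probe set, 223648_s_at, had the opposite order, at 4.0 in siSHISA2 and 16.2 in siCONTROL cells, under the floor. For both genes the arrays differed by no more than is common at such signals.

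Among the PEA3 factors, ETV4 was lower on both of its probe sets. Probe set 1554576_a_at read 95.4 in the siSHISA2 array and 172.5 in the siCONTROL array (-0.85, 2.99 times the technical SD), and 6.29% of the 2050 probe sets of similar signal were at least as far from 0. The ratios of these 2050 had an SD of 0.453, wider than the technical SD. Probe set 211603_s_at read 102.7 in siSHISA2 and 135.2 in siCONTROL cells (-0.40). Of the 3410 genes with 2 measured probe sets, 28.0% had both ratios below 0, and 2.29% had both at or below -0.40. All 4 ETV4 signals lay under the 75th percentile.

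ETV1 split by probe set. The bright one, 221911_at, was at 1742 in the siSHISA2 array and 2680 in the siCONTROL array (-0.62, 1.54-fold lower, 4.02 times 0.155), and 0.608% of the 1481 probe sets of similar signal were at least as far from 0. The 4 dim ones did not share this. Probe set 206501_x_at was at 194.9 in the siSHISA2 array and 201.3 in the siCONTROL array (-0.05). The other 3 were on the higher side: 217053_x_at at 200.2 in siSHISA2 and 148.0 in siCONTROL cells (0.44), 221910_at at 69.9 in siSHISA2 and 55.6 in siCONTROL cells (0.33), and 217061_s_at at 144.5 in siSHISA2 and 133.4 in siCONTROL cells (0.12, and -0.03 after median centring). The mean of all 5 ratios was 0.04. The span of 1.06 was matched or passed by 12.9% of the 309 genes with 5 measured probe sets.

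ETV5 disagreed between bright probe sets. Probe set 203349_s_at read 2088 in the siSHISA2 array and 2261 in the siCONTROL array (-0.12). In contrast, 203348_s_at read 1513 in the siSHISA2 array and 1010 in the siCONTROL array (0.58, 3.77 times 0.155, and at 1.497-fold just short of the 1.5-fold threshold that the ETV1 probe set 221911_at just passed). The third bright one, 230102_at, was at 486.2 in siSHISA2 and 584.7 in siCONTROL cells (-0.27). A difference as large as the 0.698 between the first pair was seen in 0.531% of the 2827 genes with 2 such probe sets. The dim 216375_s_at read 139.5 in siSHISA2 and 98.3 in siCONTROL cells (0.51), and 231083_at, at 14.1 in siSHISA2 and 5.3 in siCONTROL cells, was not measured. On the brightest probe set ETV1, ETV4 and ETV5 were all below 0, while by the mean of measured probe sets ETV4 was below 0 (-0.63) and ETV1 (0.04) and ETV5 (0.18) were above it.

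Over the 6 genes with several measured probe sets, 3 had ratios on both sides of 0 (FGFR1, ETV1 and ETV5), and 3 did not (ETV4, and FGFR2 and FGFR4 with 1 bound each). Mixed signs were seen in 54.3% of all 6428 genes with several measured probe sets, so this share was like that of the array as a whole.

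**Figure D2:**
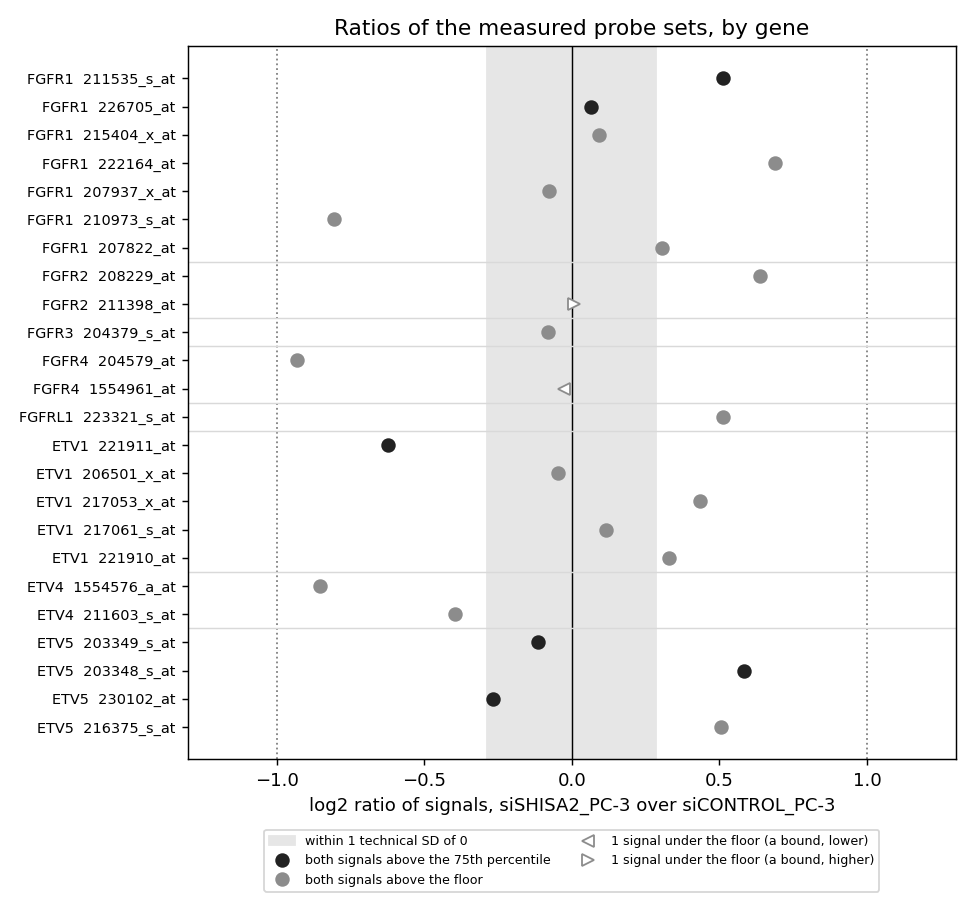
Log2 ratios of the 24 measured probe sets by gene, siSHISA2 over siCONTROL, with black circles where both signals were above 387.3, grey circles where both were above the floor, open triangles for bounds, a grey band of 1 technical SD (0.286) around 0 and dotted lines at 2-fold. No point reaches a dotted line, and FGFR1, ETV1 and ETV5 have points on both sides of 0.

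**Figure D3:**
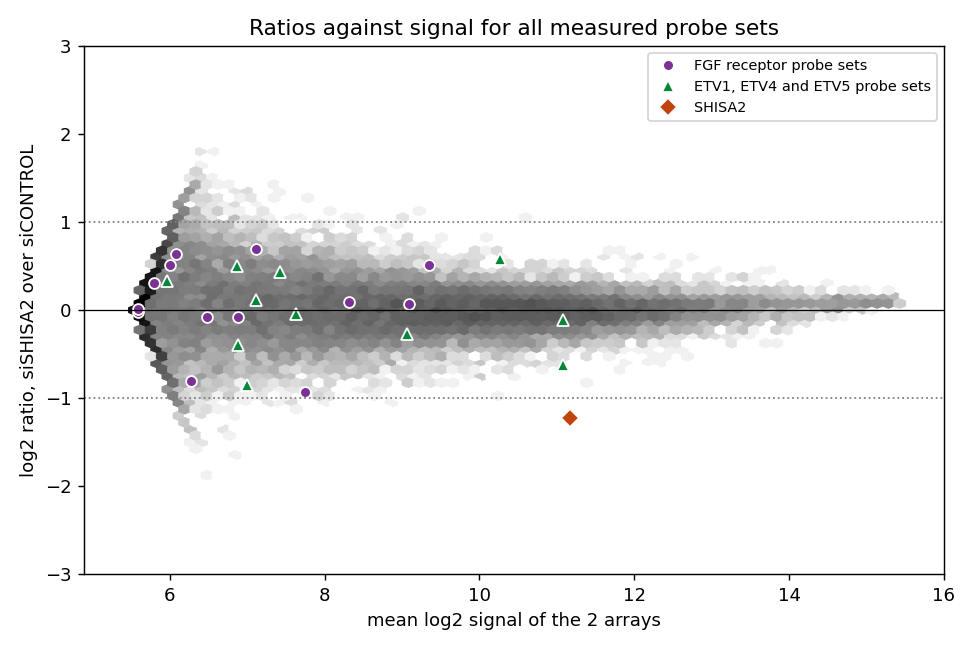
Log2 ratio (vertical) against mean log2 signal (horizontal) for all 29305 measured probe sets in grey hexagons, darker where there are more, with circles for FGF receptor probe sets, triangles for ETV1, ETV4 and ETV5 and a diamond for SHISA2. The grey cloud narrows toward bright signals, and the ETV1 probe set at -0.62 and the ETV5 probe set at 0.58 lie near its edges while most dim receptor probe sets lie inside it.

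Around the receptors and factors, 11 lists of pathway genes were read in the same way. Median centring put the medians of all 11 below 0, and it also moved the median of all measured genes to -0.12. Over all measured genes 52.2% were above and 47.8% below 0 as deposited, the background for the uncentred counts by sign that follow. Counts by sign after median centring carry the array-wide shift, and no such background is given for them. For the counts by size on the brightest probe set, the background is 1.48% of all measured genes at 2-fold and 8.79% at 1.5-fold. Upstream of the receptors, 5 of 18 FGF ligand genes were measured. FGF2, basic FGF, read 1924 in the siSHISA2 array and 1310 in the siCONTROL array (0.55, and 0.25 on its other probe set). FGF5 read 1417 in siSHISA2 and 1312 in siCONTROL cells (0.11, with -0.13 as the lowest of its 3 probe sets). The others were dim, with FGF6 at 70.3 in siSHISA2 and 52.7 in siCONTROL cells (0.42), FGF22 at 56.0 in siSHISA2 and 69.8 in siCONTROL cells (-0.32) and FGF18 at least 1.96-fold lower (46.0 in siSHISA2 and 94.0 in siCONTROL cells). Thus 3 were above and 2 below 0, with a median of 0.11 that became -0.03 after median centring and -0.23 without the _x_at and _s_at kinds.

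Among the ligand-binding partners 1 of 11 measured genes passed 2-fold (1.48% of all measured genes did). FGFBP1, a secreted carrier that releases FGFs from the matrix, was 2.43-fold higher, at 352.8 in the siSHISA2 array and 145.4 in the siCONTROL array (1.28, 1 probe set). KLB, the coreceptor beta-Klotho, read 3670 in the siSHISA2 array and 1982 in the siCONTROL array (0.89) and had 0.80 on its other probe set. The syndecan SDC4, a heparan sulfate proteoglycan, read 6449 in siSHISA2 and 4147 in siCONTROL cells (0.64), and the glypican GPC4 read 211.0 in siSHISA2 and 319.7 in siCONTROL cells (-0.60, and -0.24 on the other). On their brightest probe sets these were the only 4 of 11 measured genes past 1.5-fold, a size that 8.79% of all measured genes reached. Other probe sets of SDC1 (-0.72) and FLRT3 (-0.67) passed that size too. With SDC3 (0.48) and NCAM1 (0.34), 5 of the 11 were above and 6 below 0 (median -0.04).

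Of 10 measured genes for enzymes that make and edit heparan sulfate, 7 were below 0 (47.8% of all genes were) and none passed 1.5-fold, with a median of -0.17. EXT2, a subunit of the chain polymerase, read 1270 in the siSHISA2 array and 1707 in the siCONTROL array (-0.43). The epimerase GLCE read 280.7 in siSHISA2 and 343.1 in siCONTROL cells (-0.29). Above 0 were NDST1 (0.05), EXTL3 (0.22) and SULF1, which removes sulfate and was at least 1.29-fold higher (61.6 in siSHISA2 and 46.2 in siCONTROL cells).

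Of 13 measured adaptor genes, none passed 1.5-fold on its brightest probe set, with 4 above and 9 below 0 (2 above after median centring, 7 with probe sets averaged) and a median of -0.03. Other probe sets of the same genes went farther, to -0.95 for GRB2, -0.71 for CBLB, 0.62 for PLCG1 and 0.84 for CRKL. SHC1 was at 24763 in the siSHISA2 array and 24401 in the siCONTROL array (0.02), and CBL read 0.10. FRS3, the paralogue of FRS2, read 184.5 in siSHISA2 and 141.4 in siCONTROL cells (0.38), the docking protein GAB2 read 306.3 in siSHISA2 and 241.3 in siCONTROL cells (0.34), and GAB1 read 240.0 in siSHISA2 and 304.5 in siCONTROL cells (-0.34, with up to 0.18 on other probe sets). On their brightest probe sets the 8 measured genes for RAS, RAF, MEK, ERK and ERK-activated kinases lay between -0.11 (HRAS, at 2868 in siSHISA2 and 3103 in siCONTROL cells) and 0.06 (the ERK kinase MAPK3, at 385.4 in siSHISA2 and 369.7 in siCONTROL cells), and RPS6KA3 read -0.08. ARAF was at -0.03, with -0.47 on its other probe set. Of these 8, 5 were above 0 as deposited and 0 after median centring.

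A list made mostly of feedback inhibitors, many of which ERK signalling induces, had 4 of 11 measured genes above 0 and a median of -0.10. It also holds CNPY2 (-0.17) and CNPY1 (not measured), which are not established inhibitors. SPRY1 was 2.23-fold lower, at 224.5 in the siSHISA2 array and 499.9 in the siCONTROL array (-1.15), with -0.07 on its other probe set. SPRY4 read 2133 in siSHISA2 and 2681 in siCONTROL cells (-0.33), while the phosphatases DUSP4 (99.2 in siSHISA2 and 80.6 in siCONTROL cells, 0.30) and DUSP5 (18992 in siSHISA2 and 16504 in siCONTROL cells, 0.20) were on the other side, as were SPRED3 (0.10) and SPRY2. A set of 8 genes commonly used to read ERK output beside ETV4 and ETV5 had 7 measured, 5 above and 2 below 0, with a median of 0.07 that became -0.07 after median centring. In it PHLDA1 was higher on all 6 probe sets (0.34 to 0.57, with 10099 in siSHISA2 and 7913 in siCONTROL cells on the brightest), SPRY2 read 13740 in siSHISA2 and 11781 in siCONTROL cells (0.22), and SPRY4 and DUSP4 also belong to it. Below 0 beside SPRY4 was DUSP6, at 2839 in siSHISA2 and 3483 in siCONTROL cells (-0.30, with -0.07 as the highest of its 3 probe sets). No gene of this set passed 1.5-fold.

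Among regulators of the PEA3 factors, CIC stood at the high end. CIC, the repressor that binds the ETV1, ETV4 and ETV5 genes and is released by ERK, read 574.7 in the siSHISA2 array and 261.1 in the siCONTROL array on its only probe set (1.14, 2.20-fold higher). TRIB1 and TRIB2, pseudokinases that bring substrates to the COP1 ubiquitin ligase, were lower: TRIB1 at 2002 in the siSHISA2 array and 3609 in the siCONTROL array (-0.85), and TRIB2 at 144.5 in siSHISA2 and 427.7 in siCONTROL cells (-1.57, and -0.33 on its other probe set). The other 8 of the 11 measured genes stayed under 1.5-fold on their brightest probe sets, among them the ligase component RBX1 (6897 in siSHISA2 and 7110 in siCONTROL cells, -0.04). Another probe set of CUL4A reached 0.60. Above 0 beside CIC were ATXN1 (0.06), CUL4A (0.08), COP1 (0.10) and DDA1 (0.17), so 5 of the 11, against 2 after median centring, and the median was -0.01.

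Of the other ETS factors 15 of 25 were measured, 8 above and 7 below 0, with a median of 0.05 that became -0.09 after median centring. ELF2 was the only one past 1.5-fold on its brightest probe set, at 846.4 in the siSHISA2 array and 1293 in the siCONTROL array (-0.61, and up to -0.11 on other probe sets). Other probe sets of ELK4 (up to 0.99) and ETV6 (down to -0.61) passed that size too. ELK1, a direct ERK substrate, read 983.6 in siSHISA2 and 663.3 in siCONTROL cells (0.57, and -0.24 on its other probe set), the prostate epithelial factor SPDEF was at least 1.43-fold lower (13.8 in siSHISA2 and 68.5 in siCONTROL cells), and ELK3 read 9829 in siSHISA2 and 8659 in siCONTROL cells (0.18). Genes described as PEA3 targets in various cells had 11 of 16 measured, 6 above and 5 below 0, with a median of 0.01. SPP1, the matrix protein osteopontin, was 3.23-fold lower at 183.7 in the siSHISA2 array and 593.3 in the siCONTROL array (-1.69, on the 1 measured of its 2 probe sets). The protease MMP7 was at least 1.99-fold lower (33.9 in siSHISA2 and 95.1 in siCONTROL cells). MMP9 read 141.8 in siSHISA2 and 93.2 in siCONTROL cells (0.61) and the plasminogen activator PLAU read 17942 in siSHISA2 and 17799 in siCONTROL cells (0.01). PLAUR read 6110 in siSHISA2 and 4598 in siCONTROL cells on its brightest probe set (0.41). Over its 3 probe sets the ratios ran from 0.29 to 0.66, the highest past 1.5-fold. Other receptor tyrosine kinases, for comparison, had 10 of 24 measured genes above and 14 below 0 (6 and 18 after median centring), with a median of -0.04. On the brightest probe set 1 was past 1.5-fold, the orphan receptor ROR1 (433.3 in siSHISA2 and 742.1 in siCONTROL cells, -0.78). Other probe sets of EGFR (up to 1.09), ERBB3 (up to 0.77) and INSR (down to -0.61) also passed that size. MET read 8551 in siSHISA2 and 10913 in siCONTROL cells (-0.35), and RET read 68.3 in siSHISA2 and 50.4 in siCONTROL cells (0.44, and -0.38 on its other probe set).

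**Figure D4:**
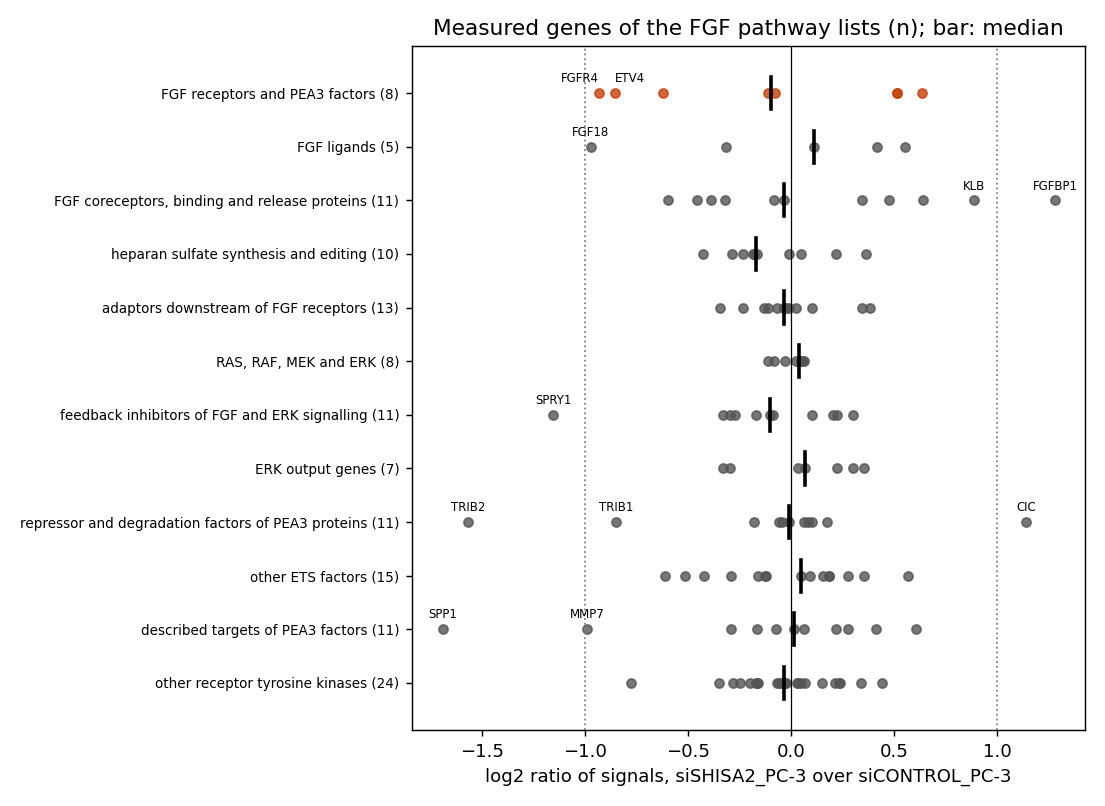
Log2 ratios of the measured genes (siSHISA2 over siCONTROL, 1 point per gene on its brightest probe set) for the FGF receptors and PEA3 factors and for 11 lists around them, with the number of genes in brackets, the median as a bar and dotted lines at 2-fold. FGFBP1 and CIC on the high side and SPRY1, TRIB2 and SPP1 on the low side pass 2-fold, and the medians lie between -0.17 and 0.11.

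**Figure D5:**
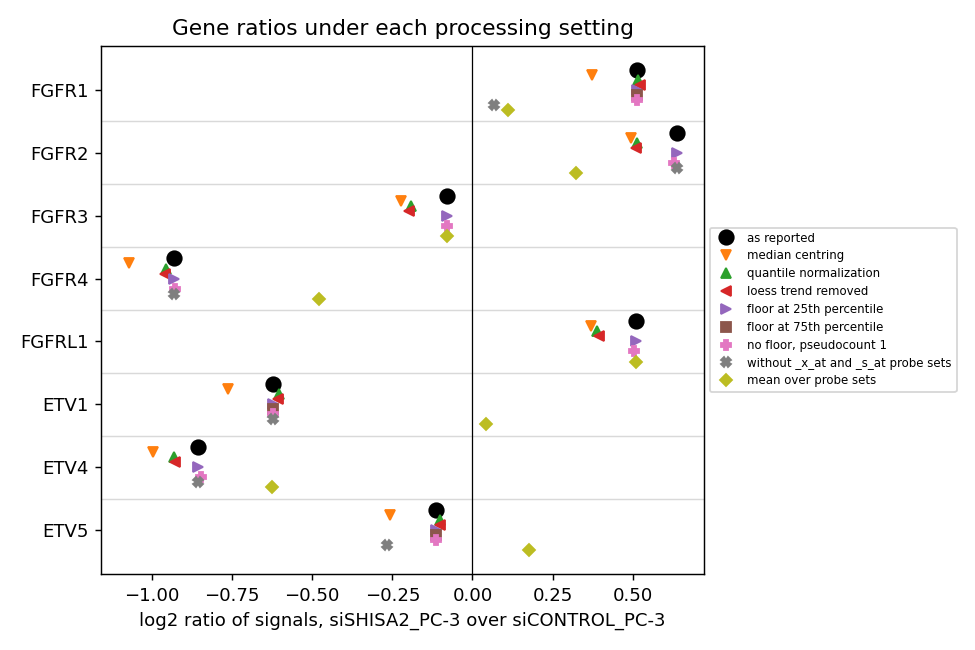
Log2 ratio of each of the 8 genes (siSHISA2 over siCONTROL) as reported, in black circles, and under the alternative settings that give a ratio, in coloured marks. FGFR4 and ETV4 stay below 0 under all settings drawn, while averaging probe sets takes ETV1 to 0.04 and ETV5 to 0.18.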

How the data were processed

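RNA of 2 PC-3 samples was hybridised to 1 oligonucleotide array each, labelled from 250 ng per the labels' protocols. The deposited values are probe-set intensities that the authors computed with MAS5, per the submitters' processing notes (no version is named). The mean after trimming 2% at each end was 500.1 in both arrays, and no further scaling was applied.

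Of 54675 probe sets, 62 controls were left out. The annotation gave 1 gene to 41091 and several to 1801 of the rest, and 11721 were not listed. Identifiers were checked against RefSeq (GRCh38.p14), which changed no symbol. Signals under 47.9 were raised to it, and each gene was read by its brightest measured probe set. With 1 array per group there are no residual degrees of freedom, no p-value was computed, and precision is limited by having so few arrays. The procedure was tested on simulated data with large changes in bright genes, which does not test dim signals or small ratios. Alternatives were 3 other scalings (loess span 0.3), 2 other floors, a pseudocount of 1, averaged probe sets, no _x_at or _s_at probe sets, and thresholds of 1.5-fold and 3-fold. The members, lists and named genes were chosen with earlier results of these data known. The rule names all members, SHISA2, the 3 largest ratios and the brightest gene of each list, and every gene of a count of 5 or fewer, except that counts by sign in the RAS to ERK, ERK output and PEA3 target lists are named in part. Python 3.11.15, pandas 2.3.3, numpy 2.4.6, scipy 1.17.1, statsmodels 0.14.6 and matplotlib 3.10.9 were used.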

Additional observations from a re-analysis of the deposited data

How the results depend on the processing

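Of the 8 gene ratios, 6 kept their sign under every alternative that gave a value, and ETV1 and ETV5 changed it when probe sets were averaged. Of the 24 probe-set ratios, 20 kept it, and the 4 exceptions (226705_at and 215404_x_at of FGFR1, 217061_s_at of ETV1 and 211398_at of FGFR2) lay between 0.01 and 0.12 as reported. The count of probe sets at least 2-fold apart, 0 as reported, was 1 after median centring, 1 with no floor and a pseudocount of 1, 4 with the floor at 11.3, and 6 at 1.5-fold; at 11.3 more dim probe sets count as measured and low signals are raised less, which takes 1554961_at of FGFR4 to -2.09. The count of such genes, also 0, was 1 after median centring (FGFR4, at -1.07) and 4 at 1.5-fold. In a setting pair chosen after seeing the data, the 1.5-fold count of 6 probe sets was 12 with the floor at 11.3 and 1 at 387.3. No array-wide share of probe sets is given for these floors. The 1.5-fold count of genes, 4 as reported, was 4 at 11.3, 1 at 387.3, where 3 genes are measured, and 1 with probe sets averaged. The share of all measured genes at that size was 8.79% as reported, 25.8% at 11.3, 2.11% at 387.3 and 7.61% with probe sets averaged. Median centring moved the median of all measured genes to -0.12, against 0.01 as reported, and every member by about the same amount. The median over the member genes was -0.44 without _x_at and _s_at probe sets, a setting that leaves out FGFR3 and FGFRL1, and 0.08 with probe sets averaged. FGFR4 was -0.48 with probe sets averaged, because that mean includes a bound near 0. Of 88 list medians recomputed, 2 moved by more than the technical SD: 0.64 for the FGF coreceptors and binding proteins with the floor at 387.3, and -0.23 for the ligands without shared probe sets. The lists' counts above or below 0 were less stable, with 30 of 176 moving by more than 1.5 times. No paired analysis was possible because each group has 1 array. Most FGFR2, FGFR3, FGFR4 and FGFRL1 signals lie near or under the floor, and there only bounds or wide scatter can be read.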
